A study of Mus musculus with 3 samples.

Results

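Lyz2 and Lyz1 are the 2 members described here, out of 32285 genes in the table. Both were named by the choice of topic, which was made with earlier results of these data known. They were taken because Lyz2, the gene of lysozyme M, lends its promoter to LysM-Cre, the driver that switches on Jak2V617F in the mutant mice. The question was which aortic leukocytes held transcripts of the driver gene above the free RNA picked up by B and T cells.

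Lysozymes are secreted enzymes that cut the peptidoglycan wall of bacteria. The mouse has a pair of neighboring copies: Lyz2 is the form of macrophages and granulocytes, and Lyz1, lysozyme P, is best known from Paneth cells of the small intestine. In a LysM-Cre mouse, recombination is expected in any cell that has used the Lyz2 promoter at some time in its life, so transcript levels at sacrifice bear on present use of the promoter and not on past use. In the widely used LysM-Cre knock-in line, Cre sits inside Lyz2 itself, so the modified copy no longer makes lysozyme.

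CITE-seq, which counts transcripts and antibody tags of single cells as unique molecular identifiers (UMIs), had been run on CD45+ cells of the aorta from 5 Jak2WT mice (hashtags 1 to 5) and 5 Jak2V617F Myel mice, which carry Jak2V617F WT/Flex and LysMCre+/-. Of the mutant mice, 3 had aortic dilation (hashtags 6, 8 and 10) and 2 had an aneurysm (hashtags 7 and 9). All were on a C57BL/6 background and untreated, with littermate controls, and circulating leukocytes were labeled intravenously and left out of the sort. The age of these mice, the LysM-Cre allele used and whether these Jak2WT mice carried Cre are not given in the sources used here. The 3' tags counted here do not show which cells had recombined Jak2.

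All 10 mice were pooled into 1 library, so free RNA was shared between them. Of 8471 barcodes, 2265 (26.7%) carried hashtags of more than 1 mouse and were left out, and 4871 cells were kept. Pairs of cells from the same mouse could not be recognized this way and no doublet caller was run. Each mouse gave 112 to 811 cells, with a median of 5441.5 to 10775 UMIs per cell. Cells were grouped by clustering without Lyz2 and Lyz1, and clusters were named by marker genes, so each name stands for cells that resembled that type. The largest types were macrophages (1779 cells), T cells (611, of which 203 lay in a cluster led by the thymocyte genes Rag1, Ccr9 and Dntt), B cells (561) and a cDC2 cluster (381). Defining markers fitted these names, with Cd79a at 2444 CPM (counts scaled by the total UMIs of the same cells) in B cells, Lck at 376 CPM in T cells, Clec9a at 263 CPM in cDC1 and S100a8 at 54316 CPM in neutrophils. The cDC2 cluster was an exception and is described below with its parts.

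The members lie next to each other on the minus strand of chromosome 10 (GRCm38). Lyz2 (ENSMUSG00000069516) spans chr10:117277331-117282321 and Lyz1 (ENSMUSG00000069515) spans chr10:117287797-117292868, with 5475 bases between them. Since the driver borrows the Lyz2 promoter, the same stretch upstream of both genes is shown, from 250 to 51 bases before the RefSeq start (GRCm38.p6, minus strand, 5′ to 3′). It covers chr10:117282323-117282522 for Lyz2 and chr10:117292919-117293118 for Lyz1. Capitals mark matches, on either strand, to AGGAAGT, the core of sites bound by PU.1 and other ETS factors, and to TTGCNNAA, the core of sites bound by C/EBP factors. The motifs do not overlap.

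Lyz2: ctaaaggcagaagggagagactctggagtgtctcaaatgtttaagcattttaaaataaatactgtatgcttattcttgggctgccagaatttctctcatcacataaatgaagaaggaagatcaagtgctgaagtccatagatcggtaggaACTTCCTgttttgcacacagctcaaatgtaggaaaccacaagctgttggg

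Lyz1: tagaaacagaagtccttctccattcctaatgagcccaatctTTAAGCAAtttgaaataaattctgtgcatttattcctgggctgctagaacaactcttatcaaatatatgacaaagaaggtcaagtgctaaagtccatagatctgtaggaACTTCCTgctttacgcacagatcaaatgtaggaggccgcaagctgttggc

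The 2 stretches were identical in 150 of 202 aligned columns (74.3%). AGGAAGT was found on the opposite strand, 100 to 94 bases before the start, in both. TTGCNNAA was found in Lyz1 alone, 209 to 202 bases before the start. Of 32851 promoter windows of the same length, 5.66% held AGGAAGT and 8.11% held TTGCNNAA, so a match is a description of the letters and not a sign of binding.

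The transcripts are similar too, which limits how well reads can be split between the genes. Of all stretches of 90 bases, 3.59% in the Lyz2 transcript (1316 bases) and 3.75% in the Lyz1 transcript (1263 bases) also occurred in the other, and in the last 500 bases, where 3' tags fall, the share was 3.65% for each. Reads from such stretches map to both genes and are left out of the counts. Misassigned reads from nearly identical stretches were not tested.

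Lyz2 was highest in Saa3+ myeloid cells, a cluster led by Prg4 and Saa3. The sums of the 3 mice with at least 10 of these cells stood at 25322 CPM in Jak2WT mouse 5, 14283 CPM in mouse 8 and 18397 CPM in mouse 10. Both mutant mice were from the dilation group, and mouse 5 was the only Jak2WT mouse with enough cells.

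Macrophages followed, at 6537 ± 2221 CPM (SD, n = 10 mice). Their Lyz2 by mouse was 10647, 4967, 5187, 6259 and 10583 CPM in Jak2WT mice 1 to 5, 5195, 6377 and 5161 CPM in dilation mice 6, 8 and 10, and 4829 and 6166 CPM in aneurysm mice 7 and 9. Jak2WT mice 1 and 5 were well above all the others, and the other 8 mice lay close together, with the 2 genotypes overlapping. Among macrophage subsets, Lyz2 stood at 7444 ± 2448 CPM in resident macrophages (n = 10), 4826 ± 1191 CPM in IEG+ macrophages, which are marked by immediate-early genes (n = 9), and 4603 ± 1089 CPM in Ccr2+ inflammatory macrophages (n = 5). The 28 monocytes, of which no mouse had 10, held 12597 CPM pooled.

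Lower levels were seen in the rest of the myeloid cells. The cDC2 cluster had 4051 ± 1834 CPM (n = 9) and neutrophils had 1878, 3898 and 1532 CPM in mice 3, 7 and 9. Proliferating cells of mixed lineage had 1708 ± 1016 CPM (n = 4). In cDC1, the dendritic cells that cross-present antigen, Lyz2 was 695.9 CPM in mouse 2, 877.9 in mouse 6, 1065 in mouse 7 and 755.5 in mouse 9.

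Lymphoid cells lay far below and close to one another. Lyz2 averaged 226.3 CPM in NK cells (n = 2), 192.7 in ILC2 (n = 9), 179.9 in B cells (n = 9), 175.6 in gd T cells (n = 4) and 172.3 in T cells (n = 10), and 119.7 CPM in mast cells (n = 4). B and T cells summed together, the reference for free RNA, held 121.3 to 273.8 CPM in the 10 mice. Mouse 4 was lowest, with 20 UMIs of Lyz2 in 20 cells, and mouse 5, which held 3 of the 4 high B cells described below, was highest. CPM near the reference also depend on depth. The 2 T cell clusters held 1.26 and 1.15 Lyz2 UMIs per cell but 156 and 338 CPM, at medians of 7737.5 and 3342 UMIs per cell. The median was 2821 UMIs in mast cells, 4099 in neutrophils and 18228 in cDC1.

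Lyz1 was ordered differently. It stood at 1253, 5721 and 4090 CPM in the Saa3+ myeloid cells of mice 5, 8 and 10 and at 1973 ± 1377 CPM in the cDC2 cluster (n = 9), above the 416.7 ± 291 CPM of resident macrophages (n = 10). Macrophages as a whole had 328.7 ± 231 CPM (n = 10), Ccr2+ inflammatory macrophages 301.6 CPM (n = 5), proliferating cells 259.8 CPM (n = 4), IEG+ macrophages 150.5 CPM (n = 9) and cDC1 95.1 CPM (n = 4). Neutrophils, with Lyz1 UMIs in 2 of 3 mice, were at 19.8 CPM, within the 8.12 to 25.1 CPM of the B and T cell reference. ILC2 (18.9 CPM), B cells (12.8), mast cells (12.4) and gd T cells (10.0) were at that level as well. NK cells were above it in both mice with enough cells, at 26.5 and 45.4 CPM (log2 difference 1.66), on 3 and 8 Lyz1 UMIs. With sums of at least 5 cells, Lyz1 in NK cells was higher than the reference in 3 of 6 mice (log2 difference -0.34).

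**Figure D1:**
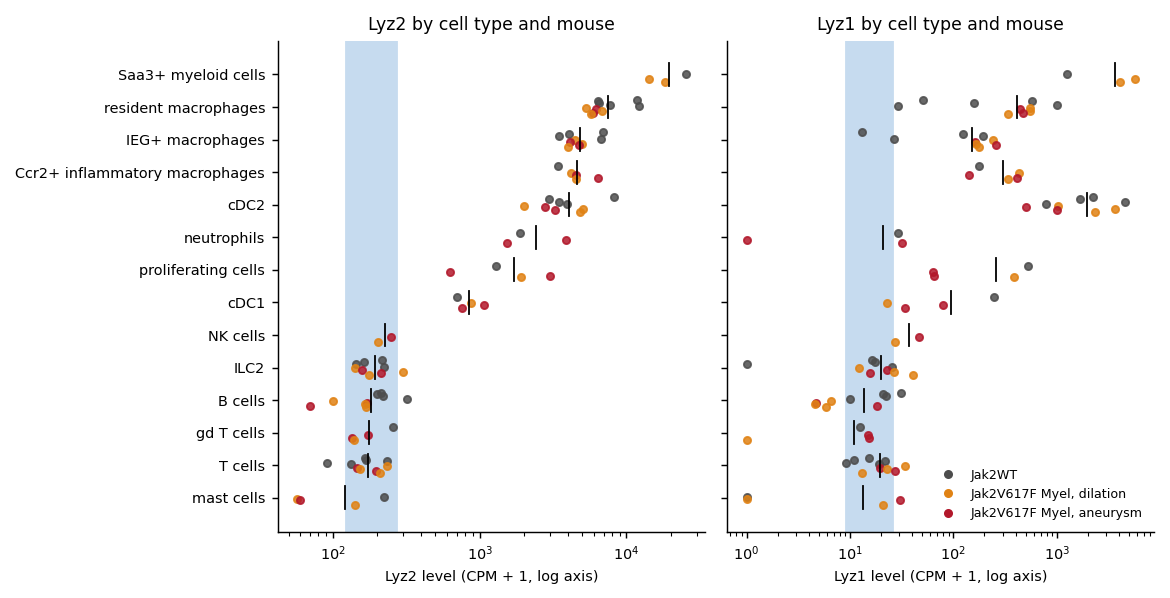
Lyz2 (left) and Lyz1 (right) in each cell type, in CPM + 1 on a log axis. Each point is the sum over the cells of 1 mouse with at least 10 cells of the type, colored by group, black bars are means over mice, and the blue band spans the B and T cells of the 10 mice; macrophages and Saa3+ myeloid cells lie far to the right of the band for Lyz2, and neutrophils do so for Lyz2 but not for Lyz1.

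The level of each type was then compared with the B and T cells of the same mouse, by a two-sided exact permutation test that flips the sign of each mouse's log2(CPM + 1) difference, adjusted by the Benjamini-Hochberg method over 10 types. For Lyz2, 2 of 10 types passed: macrophages, higher by 5.11 on the log2 scale (higher in 10 of 10 mice, exact adjusted p = 0.0195), and the cDC2 cluster, higher by 4.41 (9 of 9 mice, exact adjusted p = 0.0195). The same types passed for Lyz1, with differences of 3.83 (10 of 10 mice) and 6.65 (9 of 9 mice) and the same exact adjusted p of 0.0195. Macrophages alone passed (1 type) with sums of at least 20 cells, with finer clusters, or with the cDC2 cluster reduced to its cDC2-led part. In each of these settings fewer mice had enough cDC2 cells, which raised the smallest possible exact p. Not passing there does not measure the size of the difference. For Lyz2 that part had 7 mice and an exact p of 0.0156, the smallest that 7 mice allow. In the main setting, ILC2 was the only remaining type with enough mice to pass. Its Lyz2 differed from the reference by -0.01 (higher in 4 of 9 mice, exact p = 0.953) and its Lyz1 by -0.16 (5 of 9 mice, exact p = 0.84).

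With 2 to 4 mice the smallest exact p that sign flips allow is 0.5, 0.25 or 0.125, so the other 7 types could not pass and are given by size. Lyz2 was higher than in B and T cells by 6.55 on the log2 scale in Saa3+ myeloid cells (3 of 3 mice), by 3.59 in neutrophils (3 of 3), by 2.98 in proliferating cells (4 of 4) and by 2.28 in cDC1 (4 of 4). In gd T cells (-0.04, 2 of 4 mice higher) and NK cells (0.40, 2 of 2) it lay near the reference, and in mast cells it was below it in 4 of 4 mice (-0.92), but not with sums of at least 5 cells (-0.09, higher in 3 of 7 mice). In neutrophils macrophage transcripts were also above their lymphoid level, with C1qa, C1qb and C1qc at 4.34% to 4.55%, Apoe at 5.47% and Pf4 at 10.7% of macrophages in UMIs per cell, while Lyz2 was at 19.5%. Their part in neutrophil Lyz2 was not tested. When sums of at least 5 cells were allowed, cDC1 had 6 mice and Lyz2 was higher in 6 of 6 (2.48, exact p = 0.0312, adjusted 0.075 over 12 types). Neutrophils then also had 6 mice, with Lyz2 higher in 6 of 6 (3.12, exact p = 0.0312, adjusted 0.075). With 6 mice no smaller exact p was possible, however large the difference. Proliferating cells, with 9 mice, passed (9 of 9 mice, 3.64, exact adjusted p = 0.0156).

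Lymphoid types lay close to one another in UMIs as well. Lyz2 amounted to 1.51 UMIs per cell in B cells, 1.23 in T cells, 1.10 in ILC2, 1.31 in gd T cells and 1.44 in NK cells, against 68.9 in macrophages. These are 1.60% to 2.20% of the macrophage value. Transcripts that macrophages make in bulk were also seen in lymphoid cells. C1qa, C1qb and C1qc, the chains of complement C1q, were at 0.765% to 1.37% of their macrophage level. The chemokine gene Pf4 was at 1.16% to 2.14% and the apolipoprotein gene Apoe at 1.09% to 2.82%. Lyz2 was above the C1q genes in each of these lymphoid types. Apoe was above Lyz2 in B cells, and Pf4 was above it in T cells and ILC2. The source of the difference from the C1q genes was not tested. Lyz1 stood at 2.09% to 5.22%, on few UMIs.

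The ratio of the members gave a second reading. Lymphoid cells held 171 Lyz1 UMIs and 2172 Lyz2 UMIs, or 7.87 Lyz1 per 100 Lyz2, and all 4871 cells together held 11.5 per 100. The B and T cells of Jak2WT mouse 1 had 10 Lyz1 UMIs to 83 Lyz2 UMIs while the macrophages of the same mouse had 47 to 10770, or 0.436 per 100. In mouse 5 the numbers were 18 to 439 in B and T cells and 37 to 13209, or 0.28 per 100, in macrophages. The ratio was higher in B and T cells than in macrophages of the same mouse in 7 of 10 mice, and lower in mice 4 (10.0 against 12.1 per 100), 8 (8.05 against 8.75) and 10 (4.36 against 6.08).

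**Figure D2:**
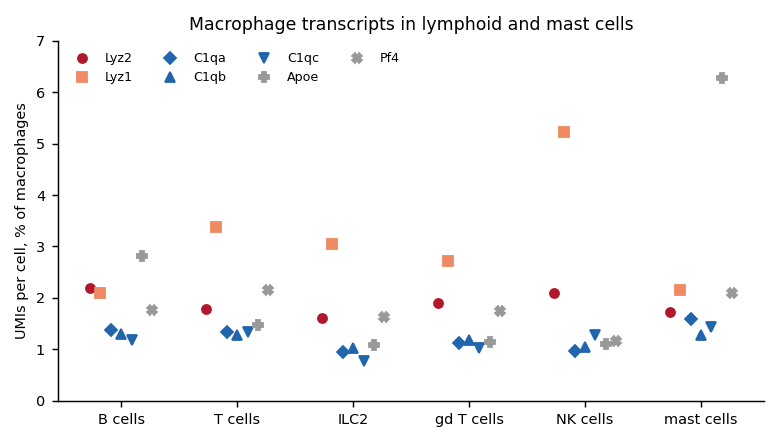
UMIs per cell of Lyz2, Lyz1 and 5 other macrophage transcripts in B cells, T cells, ILC2, gd T cells, NK cells and mast cells, as percent of the value in macrophages, pooled over mice. Lyz2 lies between 1.60% and 2.20% in all 6 types; Apoe in mast cells, at 6.27%, is the highest point.

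Cell by cell, few lymphocytes stood out. The median was 1 Lyz2 UMI in B, T, ILC2, gd T and NK cells, 0 in mast cells and 51 in macrophages. Only 4 of 561 B cells and 2 of 611 T cells had 20 or more Lyz2 UMIs, a limit set after the values were seen. Those 4 B cells, 3 of them from mouse 5, held 30.6% of all Lyz2 UMIs of B cells, and the highest had 167. Whether such cells were doublets with a myeloid cell was not tested.

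To compare shares of cells with a UMI at 1 depth, each cell was thinned to 2000 UMIs. Lyz2 was then seen in 1724 of 1759 macrophages (98.0%, exact Clopper-Pearson 95% interval 97.2 to 98.6), in 206 of 206 Saa3+ myeloid cells, in 76.5% of the cDC2 cluster (71.9 to 80.7), in 74.7% of cDC1 (64.0 to 83.6) and in 64.8% of neutrophils (55.0 to 73.8). The background share in B and T cells was 29.9% (27.2 to 32.8), and ILC2 (30.5%), NK cells (29.3%) and gd T cells (25.2%) were not above it. Without thinning the shares were 99.5% in macrophages and 63.6% in B and T cells. Thinned Lyz1 was seen in 70.4% of Saa3+ myeloid cells, 28.5% of the cDC2 cluster, 16.9% of macrophages and 15.7% of cDC1, over 3.26% of B and T cells (2.28 to 4.51). Neutrophils (7.41%), NK cells (6.67%) and ILC2 (6.01%) lay above that interval as well, but their own intervals overlapped it. Intervals cover counting error only.

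Neutrophils were uneven. Their median was 2 Lyz2 UMIs per cell, and the 10% of cells with the most held 80.9% of the Lyz2 UMIs of the type. The group values of neutrophils therefore rest on few cells. Macrophages were more even, with 33.1% of Lyz2 UMIs in that top 10%, and cDC1 were similar at 31.1%. Lyz1 was uneven in macrophages: 70.3% of them had none and the top 10% held 87.5% of its UMIs.

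Neighbors in the order of levels were compared within mice in the same way, over 12 pairs for each gene. For Lyz2, resident macrophages were above IEG+ macrophages in 9 of 9 mice, by 0.59 on the log2 scale (exact adjusted p = 0.0469). None of the other 11 pairs passed, and 10 of these 11 had fewer than 6 mice and could not reach 0.05 even before adjustment. For Lyz1, the cDC2 cluster was above resident macrophages in 9 of 9 mice, by 2.40 (exact adjusted p = 0.0469), and no other pair passed. Of those other pairs, only ILC2 with T cells and T cells with B cells had 6 mice or more, so the rest could not pass. For both genes, the order that set the pairs came from the same values.

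The cDC2 cluster held cells of different kinds. Conventional type 2 dendritic cells present antigen to CD4 T cells and are defined by Flt3, the receptor of their growth factor, and by the dendritic cell factor Zbtb46. Clustered alone, the 381 cells fell into 5 subclusters. Subclusters 2, 3 and 4 (201 cells, 52.8%) were led by the cDC2 markers, with pooled Flt3 at 95.6 CPM and Cd209a at 1064 CPM. The lead was narrow, with cDC2 marker scores of 0.421, 0.599 and 0.0935. The next lists were those of plasmacytoid dendritic cells (0.4), migratory dendritic cells (0.589) and ILC2 (0.0808). Flt3 was at 38.6 CPM in subcluster 4. Subclusters 0 and 1 (180 cells, 47.2%) had Flt3 at 4.37 CPM and Cd209a at 131 CPM and more Csf1r (336 against 75.3 CPM), the receptor gene of macrophage growth factor. C1qa was at 1828 CPM in subcluster 1 and 211.5 CPM in subcluster 0, against 38.6 to 92.4 CPM in the cDC2-led ones. The cDC2 marker Itgax did not separate them, at 113.4 and 68.5 CPM in subclusters 0 and 1 and 52.3, 167 and 101 CPM in subclusters 2, 3 and 4. Of the marker lists, that of macrophages scored highest in both subclusters 0 and 1. It stood at 0.948 in subcluster 1 (next monocytes, 0.158). In subcluster 0 it stood at 0.106 (next neutrophils, 0.0704), below the limit of 0.5 for a name. The cells of subclusters 0 and 1 went against the name of their cluster and were given no other.

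Both lysozymes were concentrated in the latter. Pooled Lyz2 was 6451 CPM in subclusters 0 and 1 and 659 CPM in the cDC2-led ones, and pooled Lyz1 was 2761 against 50.5 CPM. By mouse, Lyz1 in subcluster 0 lay between 1356 and 6566 CPM in 9 mice with at least 5 cells and in subcluster 2 between 0 and 58.9 CPM in 7 mice, without overlap. Subclusters were drawn from the same transcripts, so these differences are a description and were not tested. At a finer resolution of clustering, 169 of the 180 cells left the cDC2 cluster for an unnamed one and 196 of the 201 stayed, and the Lyz2 level of cDC2 was then 793 CPM.

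The cDC2-led cells were compared with free RNA on their own, an alternative added after the values were seen. Lyz2 stood at 939 CPM in mouse 2, 1035 in mouse 5, 607, 1265 and 827 in dilation mice 6, 8 and 10, and 504 and 519 in aneurysm mice 7 and 9. It was above the B and T cells of the same mouse in 7 of 7 mice, by 2.07 on the log2 scale (exact p = 0.0156, adjusted 0.0781 over 10 types). With 7 mice no smaller exact p was possible, so missing the threshold says nothing about the size of the difference. Lyz1 was higher in 5 of 7 mice (1.17, exact p = 0.172, adjusted 0.417).

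**Figure D3:**
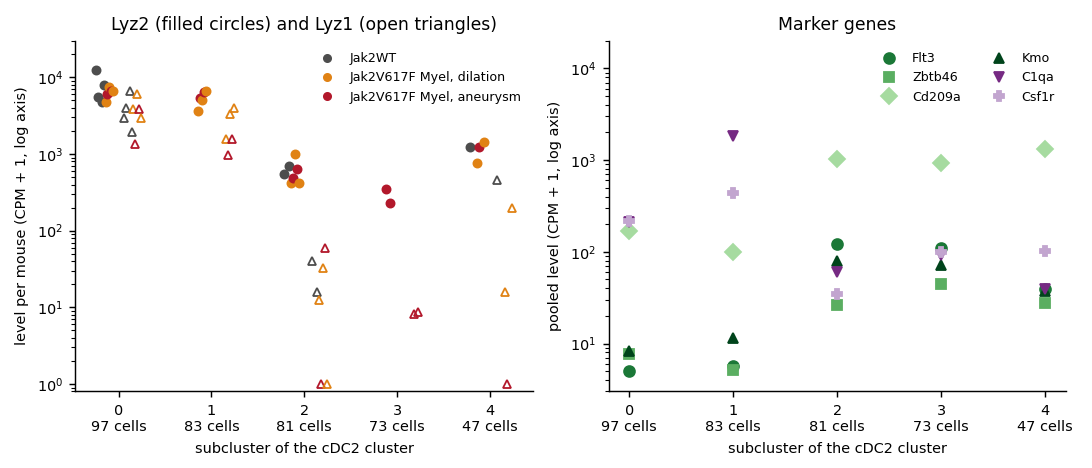
The 5 subclusters of the cDC2 cluster, with the number of cells under each. Left, Lyz2 (filled circles) and Lyz1 (open triangles) per mouse with at least 5 cells, in CPM + 1 on a log axis, colored by group; right, pooled level of 4 cDC2 markers and of C1qa and Csf1r on the same scale. Subclusters 0 and 1 are high in both lysozymes and low in Flt3 and Cd209a, and subclusters 2, 3 and 4 are the reverse.

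Genotypes were compared on sums per mouse with edgeR's quasi-likelihood test, adjusted over all genes. Neither member passed in macrophages. Lyz2 was lower in mutant mice by 0.40 on the log2 scale, log2 fold change -0.40 (SE 0.20, 95% interval -0.84 to 0.04, adjusted p = 0.442), and Lyz1 had a log2 fold change of 0.62 (SE 0.65, -0.78 to 2.01, adjusted p = 0.743). The members' 0 of 2 stood beside 0 of 8201 genes called (0%), with 996 genes at an unadjusted p under 0.05 and 46 genes called by DESeq2, which called neither member. Jak2 itself, whose 3' tags are the same for the normal and mutated form, had a log2 fold change of 0.04 (adjusted p = 0.979).

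Resident macrophages came closest to a difference in Lyz2. By mouse it stood at 11739, 6441, 6485, 7738 and 12096 CPM in Jak2WT mice 1 to 5, at 5283, 6794 and 5748 CPM in dilation mice 6, 8 and 10 and at 6167 and 5946 CPM in aneurysm mice 7 and 9. Mice 1 and 5 were again the highest, and the groups overlapped only through mutant mouse 8, which lay above Jak2WT mice 2 and 3. The log2 fold change was -0.56 (SE 0.15, 95% interval -0.88 to -0.24, unadjusted p = 0.00165), but the adjusted p of 0.0626 missed the threshold of 0.05. The members' 0 of 2 stood beside 142 of 7014 genes called (2.02%). DESeq2 gave -0.55 with an adjusted p of 0.044. Without mouse 1 the value was -0.44 (adjusted p = 0.202), without mouse 5 it was -0.43 (0.149), and without mouse 2 or 3 it passed (0.0179 and 0.038). Lyz1 had a log2 fold change of 0.42 (adjusted p = 0.833). The resident class pooled clusters that differed in Lyz2, at 4970 CPM (led by Cd209d), 8640 CPM (led by Iigp1) and 8730 CPM (led by Aqp1). The paper reports that its resident subsets were unequally distributed between genotypes. The part of this make-up in the Lyz2 difference was not tested.

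In the other types with at least 3 mice of each genotype, neither member passed. In IEG+ macrophages, where 3 of 4509 genes were called (0.0665%), Lyz2 had a log2 fold change of -0.28 (adjusted p = 0.649) and Lyz1 of 1.05 (SE 0.38, unadjusted p = 0.0136, adjusted 0.355). Without a filter on low counts this Lyz1 value was 1.09 and passed (adjusted p = 7.12e-06). The share of all genes called in that fit was not counted. In IEG+ macrophages Lyz1 was lowest in Jak2WT mice 1 and 5, at 11.99 and 25.6 CPM. It stood at 124 to 257 CPM in the 7 other mice with at least 10 cells. Jak2WT mouse 3 (191.5 CPM) lay above mutant mice 7, 8 and 10 (161.7, 165.5 and 176.5 CPM). In the cDC2 cluster, where 2 of 4242 genes were called (0.0471%), the values were -0.41 for Lyz2 (adjusted p = 0.777) and -0.47 for Lyz1 (adjusted p = 0.856). Both called genes, Pf4 and Apoe, are macrophage transcripts that rose in mutant mice. C1qa, C1qb and C1qc had log2 fold changes of 2.11 to 2.13 without passing. Subcluster 1 had Pf4, Apoe and the C1q genes among its top genes. It held at least 5 cells in the 5 mutant mice and in no Jak2WT mouse. The part of this unequal make-up of the cluster in these values was not tested.

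The same fit was run on lymphoid cells. The mice shared the free RNA of 1 pool, so this fit does not measure free RNA by genotype. The source of any difference was not tested. Lyz2 had a log2 fold change of -0.71 in B cells (unadjusted p = 0.0047, adjusted 0.971; -0.46 without mouse 5, which held 3 of the 4 high B cells), -0.01 in T cells (adjusted p = 1.00) and 0.05 in ILC2 (adjusted p = 0.976). No gene was called in B cells (0 of 3308, 0%), T cells (0 of 3813, 0%) or ILC2 (0 of 1871, 0%) by edgeR, with 151, 381 and 116 genes at an unadjusted p under 0.05. DESeq2 called 1, 5 and 0 genes. Lyz1 fell under the filter on low counts in all 3.

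Among mutant mice, neither member passed between severities. Against dilation, macrophages of the 2 mice with aneurysm had a log2 fold change of 0.04 for Lyz2 (adjusted p = 0.959) and -0.53 for Lyz1 (adjusted p = 0.762), where 888 of 9043 genes were called (9.82%). The macrophages differed in make-up: Ccr2+ inflammatory macrophages were 246 of 364 in mouse 7 and 197 of 390 in mouse 9, but 12 of 131, 4 of 127 and 20 of 250 in dilation mice 6, 8 and 10, and at most 12 in a Jak2WT mouse. The part of this make-up in the severity and genotype values of macrophages was not tested. Resident macrophages, with 1 of 7943 genes called (0.0126%), had 0.00 for Lyz2 and -0.10 for Lyz1 (adjusted p = 1.00 for both). In the cDC2 cluster, with 7 of 4996 called (0.14%), the values were -0.37 for Lyz2 (adjusted p = 0.997) and -1.61 for Lyz1 (SE 0.59, unadjusted p = 0.0173, adjusted 0.586). Without a filter on low counts the Lyz1 value was -1.53 and passed (adjusted p = 3.82e-07), with the share of all genes called not counted. Lyz1 stood there at 499 and 1001 CPM in aneurysm mice 7 and 9 and at 1026, 3637 and 2341 CPM in dilation mice 6, 8 and 10, without overlap. Of the 73 cells of subcluster 3, the lowest in Lyz1, 44 came from mouse 7 and 27 from mouse 9, and its part in this difference was not tested.

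Ccr2+ inflammatory macrophages were named by the markers Ccr2, Spp1, Tnip3 and Il1b, and the paper proposes that such cells most likely came from blood monocytes. They were compared with resident macrophages in the 5 mice that had 10 cells of each, with the mouse as a block. Lyz2 was 3418 against 6441 CPM in mouse 2, 4164 against 5283 in mouse 6, 4536 against 6167 in mouse 7, 6374 against 5946 in mouse 9 and 4522 against 5748 in mouse 10. It was lower in inflammatory macrophages in 4 of 5 mice, with a log2 fold change of -0.25 (SE 0.15, adjusted p = 0.275). Lyz1 had -0.58 (SE 0.22, unadjusted p = 0.0149, adjusted 0.0612) and was lower in 4 of 5 mice and slightly higher in mouse 10 (341 against 339.9 CPM). Neither member passed, beside 1870 of 8240 genes called (22.7%). On library size alone, without TMM scaling, both passed (-0.39 and -0.73, adjusted p = 0.0388 and 0.0184).

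The members were also set against each other within the same cells, which cancels depth. Macrophages held 0.436, 6.61, 3.19, 12.1 and 0.28 Lyz1 UMIs per 100 Lyz2 UMIs in Jak2WT mice 1 to 5, 9.36, 8.75 and 6.08 in dilation mice 6, 8 and 10 and 4.13 and 6.51 in aneurysm mice 7 and 9. Mice 1 and 5 were low and the other 8 were between 3.19 and 12.1. The mean log2 ratio was -3.90 ± 0.47 in mutant mice and -5.65 ± 2.40 in Jak2WT mice (n = 5 each, SD), a difference of 1.75 (exact permutation p = 0.206, adjusted 0.31 over 3 types, smallest possible 0.00794). In resident macrophages the difference was 1.99 (exact p = 0.159, adjusted 0.31) and in the cDC2 cluster -0.18 (exact p = 0.81). Without mouse 4 the differences in macrophages and resident macrophages were 2.40 (exact p = 0.0317) and 2.67 (0.0397), without mouse 1 they were 1.20 and 1.45, and without mouse 5 they were 1.04 and 1.23.

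The 2 mice that stood apart in macrophages did so in opposite directions for the 2 genes: highest in Lyz2 and lowest in Lyz1. The same held in resident and IEG+ macrophages. Mice 1 and 5 were also highest in Lyz2 in neutrophils (8286 and 7802 CPM) and cDC1 (2251 and 1858), each on fewer than 10 cells. So they were in proliferating cells (9353 and 22588 CPM on 8 and 5 cells), but there mouse 1 was highest in Lyz1 too (1303 CPM). In Ccr2+ inflammatory macrophages (13880 and 3395 CPM) and monocytes (4548 and 21735) only 1 of these mice was highest in Lyz2. In the low-RNA cluster led by macrophage genes, which entered no comparison, the pattern failed for both genes. Lyz2 there was highest in mice 6 and 4 (9086 and 9035 CPM), with mice 1 and 5 at 6880 and 6297 CPM. Lyz1 was lowest in mouse 2 (68.2 CPM), with mice 1 and 5 at 94.4 and 149.6 CPM. The opposite directions did not hold in the cDC2 cluster. Mouse 1 was highest there in Lyz2 (8195 CPM) but had 2224 CPM of Lyz1, in the middle of the 499 to 4559 CPM of the 9 mice. Mouse 5 had 3932 CPM of Lyz2 and 783 CPM of Lyz1 there, and 13 of its 20 cells were cDC2-led. In the rest of the cluster, outside the cDC2-led part, the Lyz2 side did hold. Mice 1 and 5 were highest, at 12848 and 9621 CPM on 9 and 7 cells, and mouse 10 came next at 6697 CPM. The Lyz1 side did not, with 3656 and 2264 CPM in mice 1 and 5 against 1112 CPM in mouse 7. In its Saa3+ myeloid cells mouse 5 had 4.95 Lyz1 per 100 Lyz2, against 40.1 in mouse 8 and 22.2 in mouse 10. Mice 1, 2, 6 and 7 had Xist transcripts and mouse 5 did not. Of 5 other genes examined within 500 kb on chromosome 10, a window chosen after the values were seen, none was highest or lowest in macrophages of both mice. Cct2 was at 99.8 and 118 CPM in mice 1 and 5 (range 99.8 to 147 CPM), Frs2 at 16.8 and 20.8 (12.5 to 24.6), Yeats4 at 62.3 and 56.9 (48.1 to 87.3), Cpsf6 at 29.7 and 52.1 (29.7 to 65.2) and Mdm2 at 112 and 49.7 (49.7 to 180). Mouse 1 was thus lowest in Cct2 and Cpsf6 and mouse 5 lowest in Mdm2. The genotype at the Lyz2 locus of each mouse was not tested.

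**Figure D4:**
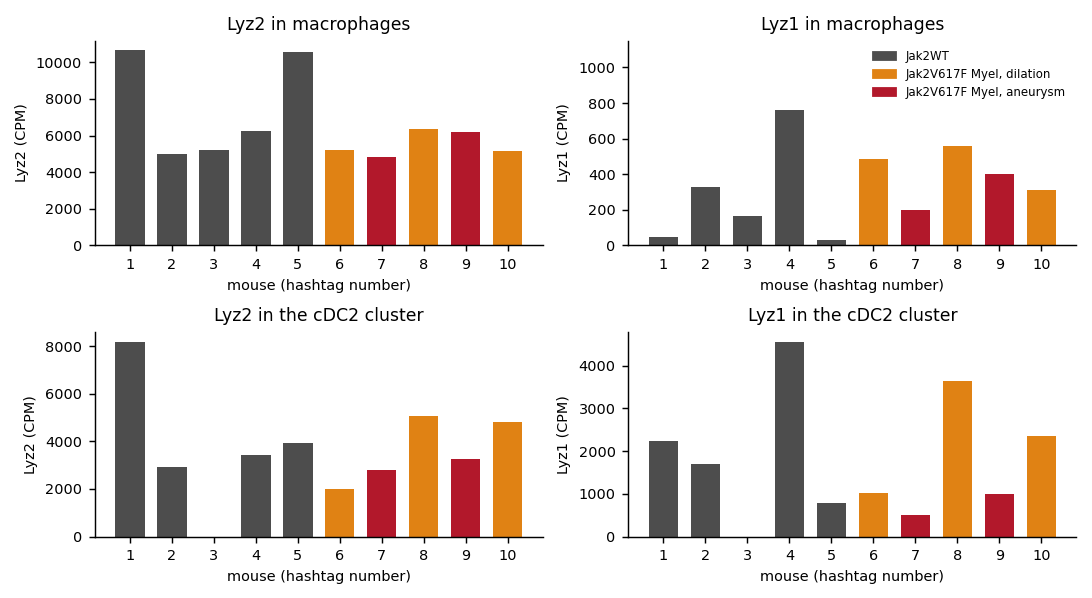
Lyz2 (left) and Lyz1 (right) in macrophages (top) and the cDC2 cluster (bottom), 1 bar per mouse in CPM, colored by group; mouse 3 is absent from the bottom row because it had 7 cells there. In macrophages, Jak2WT mice 1 and 5 have the highest bars for Lyz2 and the lowest for Lyz1.

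Between types the ratio varied far more than between most mice. There were 50.8 Lyz1 per 100 Lyz2 in the cDC2 cluster (mean of 9 mice) and 22.4 in Saa3+ myeloid cells (3 mice). Resident macrophages had 6.45 (10 mice), Ccr2+ inflammatory macrophages 6.55 (5 mice), IEG+ macrophages 3.51 (9 mice) and neutrophils 1.18 (3 mice). Only the resident mean includes mice 1 and 5, at 0.429 and 0.233, and the Ccr2+ mean does not. In mice 2, 6, 7, 9 and 10, which had both subsets, resident macrophages had 9.02, 10.47, 7.10, 7.93 and 5.91. Ccr2+ inflammatory macrophages had 5.13, 10.45, 3.12, 6.51 and 7.54 in the same mice. The neutrophil value rests on 0 to 8 Lyz1 UMIs per mouse, and the IEG+ value includes mice 1 and 5 with 3 and 8. Whether the genotype difference of Lyz2 varied between macrophages and the cDC2 cluster was tested within mice: it differed by -0.15 on the log2 scale (exact permutation p = 0.643, 5 against 4 mice), and for Lyz1 by 1.93 (exact p = 0.0714).

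**Figure D5:**
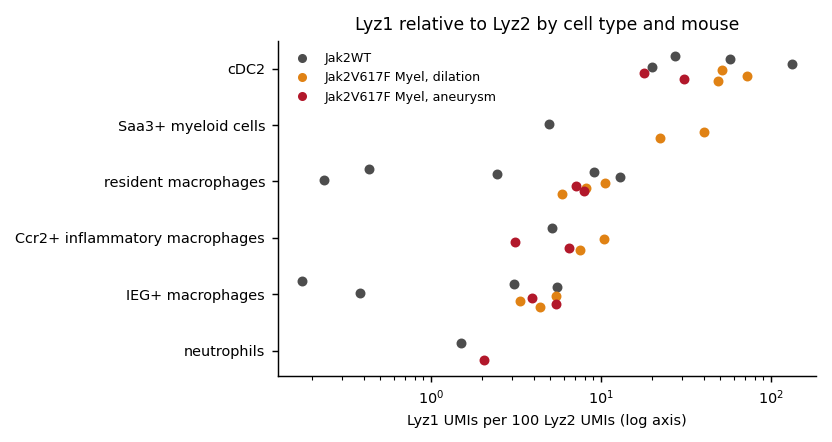
Lyz1 UMIs per 100 Lyz2 UMIs on a log axis, by myeloid type, 1 point per mouse with at least 10 cells and at least 1 Lyz1 UMI, colored by group. The cDC2 cluster lies to the right and neutrophils to the left, and the points of Jak2WT mice 1 and 5 lie apart at the left of the resident and IEG+ macrophages.

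Genes of related role were read from lists. Of 10 lysozyme family genes, Lyz2 and Lyz1 alone exceeded 2 CPM in any type. Among antibacterial granule genes, Camp (8144 CPM), Ltf (2539), Ngp (10420) and Lcn2 (5925) were high in neutrophils, and were at most 8.07 CPM in Saa3+ myeloid cells and under 2 CPM in macrophages. Others were not: Elane and Mpo had 0 CPM in neutrophils and 187.5 and 37.5 CPM in proliferating cells, Ctsg had 0 CPM in neutrophils and 74.7 in mast cells, and Prtn3 had 7.92 CPM in neutrophils and 299 in Saa3+ myeloid cells. Of 22 genes whose promoters drive Cre lines, none passed among 15 tested in macrophages by edgeR and 0 had an unadjusted p under 0.05 (median log2 fold change -0.07, all genes -0.00). Over all genes 0% were called in macrophages and 2.02% in resident macrophages. In resident macrophages 1 of 12 passed: Cx3cr1, the fractalkine receptor gene, fell (log2 fold change -2.19, SE 0.51, adjusted p = 0.0337). Of 20 antimicrobial effectors, 0 of 9 passed in macrophages and 1 of 5 in resident macrophages, where Cybb, the catalytic chain of the phagocyte oxidase, fell (-0.42, SE 0.09, adjusted p = 0.0254).

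Some genes whose promoters are used for other myeloid Cre lines had other patterns across these types, and others did not. Csf1r stood at 1123 CPM in macrophages, 191 in the cDC2 cluster, 388 in Saa3+ myeloid cells, 90.5 in neutrophils and 8.39 in cDC1, and Cx3cr1 at 118, 22.9, 3.74, 14.3 and 1.39 CPM. S100a8 was at 54316 CPM in neutrophils and at most 13.2 CPM in the other types just named. Adgre1, in the order of types used for Csf1r, was at 302, 84.6, 649, 60.2 and 10.4 CPM, and ranked the types as Lyz2 did. Pf4 was at 2895, 220, 4174, 453 and 28.8 CPM. Lyz2, given above, was at 848.6 CPM in cDC1 and at 2436 CPM in neutrophils. For each gene named so far in this paragraph, cDC1 was the lowest of the 5. Other genes of the Cre driver list went the other way. In cDC1, Ccr2 was at 258.5 CPM, Itgax at 26.6, Zbtb46 at 40.6 and Clec9a at 263 CPM. In macrophages the same genes were at 125.9, 14.8, 5.26 and 0.49 CPM.

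The genes whose pattern was most like Lyz2 across 11 types, by Pearson's r of mean log2(CPM + 1) among 10843 genes, were Mfsd7a (0.973), Adgre1, the gene of F4/80 (0.97), App (0.965), Ifi202b (0.962), Cfp, which encodes properdin (0.961), Tlr2 (0.957), Cd302 (0.954) and Cd14 (0.951). For Lyz1 they were Ms4a8a (0.967), Dpep2 (0.947) and Mtm1 (0.947). The 11 points share 1 library and its free RNA, and differ in depth.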

How the data were processed

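The authors deposited UMI counts per barcode for 32285 genes, antibodies and hashtags, made with Cell Ranger 6.0.2 on the mm10 reference. These counts are not normalized, and antibody and hashtag counts served for mouse assignment and surface gates. The members and gene lists were chosen with earlier results of these data known.

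Barcodes were assigned to mice with HTODemux (Seurat 5.3.0, R 4.3.3; quantile 0.99), and cells with over 10% mitochondrial transcripts (986) were removed. Louvain clusters were drawn from 2000 variable genes, without Lyz2 and Lyz1, and 20 components at resolution 0.3 (macrophages and the cDC2 cluster 0.8). Clusters were named by marker score (at least 0.5; macrophage subsets 0.3) and 3 markers detected. A low-RNA cluster led by macrophage genes (346 cells) and a mixed lymphocyte and macrophage cluster (37 cells) entered no comparison. The surface antibodies served only as an alternative to clusters, because the ILC2 gate held 3 cells and the NK gate held 380 of which 73 were NK cells by transcripts.

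UMIs were summed per mouse and type, with at least 10 cells, and given in CPM of those cells. The mouse was the replicate, and the labels tie each hashtag to 1 aorta. Sign-flip and group tests were two-sided exact permutation tests on log2(CPM + 1). Genotypes and severities were compared with edgeR 4.0.16 (quasi-likelihood F test, filterByExpr, TMM), with Benjamini-Hochberg adjustment over all genes and a threshold of 0.05; severities were fitted with the Jak2WT mice as a group of their own. The pairing of subsets comes from the same animal, and deviations of the 2 subsets correlated by 0.00369 to 0.428 over 1000 genes. Tests of ratios needed 10 UMIs of each gene in a mouse; ratios given as levels had no such limit. On simulated counts, edgeR recovered 74.7% of genes changed by 1 and 99.0% of those changed by 2 on the log2 scale in macrophages (5 false calls of 8045 genes), and 44.8% and 100% in the cDC2 cluster (6 of 4033). DESeq2 1.42.0 was an alternative.

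The named genes are the members, the genes of 4 lists (lysozyme family, Cre driver genes, antimicrobial effectors, free RNA reference), the 8 most alike genes and the markers of types. Genes near the members and lymphocytes with 20 Lyz2 UMIs were looked at after the values were seen. Promoters are from RefSeq on GRCm38.p6, with both members matched; gene positions are from GENCODE on GRCm38. Bulk RNA-seq was not analysed here.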

Additional observations from a re-analysis of the deposited data

Results flagged for a closer look

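Of 30 groups of 4 or 5 mice of 1 genotype examined, 3 held a mouse far from the rest, where chance gives about 1 in 20. Lyz2 in the B cells of Jak2WT mouse 5 was at 318 CPM, with the next of 4 mice at 218 CPM. Lyz1 in the B cells of mutant mouse 9 was at 17.3 CPM, with the next of 5 mice at 5.55 CPM. That value was 1 Lyz1 UMI in 12 cells. Mutant mice 6, 7 and 8 also had 1 UMI each, in 27, 47 and 46 cells. Lyz2 in the Ccr2+ inflammatory macrophages of mutant mouse 9 was at 6374 CPM, with the next of 4 mice at 4536 CPM.

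Cells left out of every comparison also held lysozyme transcripts. The 346 low-RNA cells led by macrophage genes had 13.1 Lyz2 UMIs per cell and the 37 mixed lymphocyte and macrophage cells had 66.7, against 1.36 in B and T cells. The mixed cells were near the 68.9 of macrophages.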

How the results depend on the processing

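The level of Lyz2 in macrophages, and the direction of its difference between genotypes in macrophages, resident and IEG+ macrophages and the cDC2 cluster, held under every alternative that gave a value. Free RNA depended on which cells were called lymphocytes. In B and T cells by surface antibody gates, Lyz2 was 829 CPM and Lyz1 80.4 CPM, against 184 and 16.1 CPM in the main setting. With the mixed cluster kept as B cells, an alternative added after the data were seen, they were 446 and 34.1 CPM. The gated values were near those of cDC1 by clusters (848.6 and 95.1 CPM). Sizes above free RNA given here therefore hold for the reference drawn from clusters. Lyz2 was 793 CPM in cDC2 at resolution 0.5. The number of types above free RNA fell to 1, for each gene, at resolution 0.5, with at least 20 cells and with cDC2-led cells only. In each of these settings fewer mice had enough cDC2 cells, which raised the smallest possible exact p. Lyz2 in resident macrophages passed under MULTIseqDemux (-0.601, adjusted p = 0.0417), a 5% mitochondrial limit (-0.601, 0.0437), DESeq2 (-0.552, 0.044) and no filter on low counts (-0.509, 7.35e-05), and ranged from -0.652 to -0.429 when each mouse was left out. In fits without a filter the share of all genes called was not counted. Between inflammatory and resident macrophages, Lyz2 passed under MULTIseqDemux (-0.422) and library size alone (-0.388), and Lyz1 with low-RNA cells kept (-0.693), library size alone (-0.731) and no filter (-0.628). Without each mouse, Lyz1 ranged from -0.806 to -0.354, and passed without mouse 9 or 10. Without the mouse as a block, this comparison gave -0.199 for Lyz2 (adjusted p = 0.339) and -0.51 for Lyz1 (0.168), so the block changed no call. The ratio of Lyz1 to Lyz2 in macrophages passed with surface gates (2.12, exact p = 0.0357) and was 1.04 to 2.4 without each mouse.

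Other values that turned sign were small or imprecise. The difference between macrophages and cDC2 was 0.0371 under MULTIseqDemux and -0.32 to 0.0401 without each mouse. Lyz2 between severities in macrophages was -0.111 with surface gates, -0.0215 on library size alone and -0.125 to 0.194 without each mouse. In resident macrophages it was -0.0535 under MULTIseqDemux, -0.0157 with the 5% limit and -0.06 to 0.11 without each mouse, and Lyz1 was -0.281 to 0.0338. Between genotypes, Lyz1 in cDC2 ranged from -0.921 to 0.0491 without each mouse. The ratio in cDC2 was 0.224 under MULTIseqDemux, 0.135 with gates, 0.145 with at least 5 cells and -0.574 to 0.337 without each mouse. Lyz2 in B cells was 0.775 with gates and 0.25 with the mixed cluster kept. In T cells it was 0.0712 with the 5% limit, 0.596 with gates, 0.0552 without lymphocytes positive for F4/80 or CD64, 0.21 on library size alone, 0.025 for dilation alone, and -0.139 to 0.17 without each mouse. In ILC2 it was -0.0599 for aneurysm alone and -0.136 to 0.173 without each mouse. The causes of these changes were not tested. Surface gates gave no macrophage subsets. Types with 2 to 4 mice could not pass the test against free RNA. For Lyz2, cDC2-led cells (7 mice) had the smallest exact p that their mice allow. So did cDC1 and neutrophils (6 mice each) with sums of at least 5 cells.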
